A study of Homo sapiens with 9 samples.

Results

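The HOX gene clusters A to D were examined in MDA-MB-231 cells, an established human triple-negative breast cancer line. The 3 groups of cells carried, from a lentivirus, the scrambled hairpin shScr, the hairpin shCTDP1-#1 or the hairpin shCTDP1-#2. Both latter hairpins target CTDP1, a phosphatase of the RNA polymerase II C-terminal domain, and each group held 3 libraries of total RNA. All groups, the control included, went through infection and puromycin selection, and neither the promoter of the hairpin nor single-cell cloning is named in the labels. The labels do not tie the libraries of a group to separate cultures, so a p-value here weighs a change only against the spread between libraries, which may be technical.

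Members were all intervals lying wholly inside one of 4 hg19 windows: chromosome 7 from 27130000 to 27250000 (HOXA), chromosome 17 from 46600000 to 46810000 (HOXB), chromosome 12 from 54330000 to 54450000 (HOXC) and chromosome 2 from 176940000 to 177060000 (HOXD). They came to 84 of the 57773 rows in each file, with 23 in HOXA, 25 in HOXB, 20 in HOXC and 16 in HOXD. In HOXC, 2 rows gave the same interval, from 54447661 to 54449814, and were left out of the tests, since nothing tells them apart. The other 82 members were intervals listed once. The files give intervals by position without gene names, and the annotation at hand is of another build, so no interval is assigned to a single HOX gene. CTDP1 and the marker genes of the cell line were not analysed here for the same reason. Below, knockdown libraries means those of either CTDP1 hairpin, and their level of CTDP1 was not checked.

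HOX genes encode homeodomain transcription factors that set identity along the head-to-tail axis of the embryo, and many adult epithelia and tumours keep a subset of them active. Within a cluster the genes lie in the order of the body region in which they act, from anterior to posterior paralogs, and long noncoding RNAs, antisense transcripts and microRNA genes lie among them. On the numbering of the reference genome, the anterior paralogs lie at the low end of HOXA and HOXB and at the high end of HOXC and HOXD. Intervals are named below by the distance of their start from the start of the first member in the window, in kb.

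Each value is the deposited TPM, a measure of transcript abundance that is scaled to transcript length and to the same total in every library. An interval was tested if it reached 1 TPM in at least 3 libraries. All 9 libraries were fitted together with limma on log2(TPM + 1), and an interval was called if its Benjamini-Hochberg adjusted p over all 15011 tested intervals was below 0.05. Log2 changes on this scale understate the change of low intervals. Of the libraries, shScr replicate 1 stood apart, with 4.47% of its TPM on mitochondrial intervals against 1.12% to 2.28% in the other 8. More intervals of the whole table were above 0 in the knockdown libraries, 21562 to 22491, than in the shScr libraries, 19553 to 20063.

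Most intervals of the 4 clusters were listed at 0 TPM or near it, and most of the RNA of the windows came from a few intervals of HOXB and HOXD. Of the 82 members listed once, 38 (46.3%) were listed at 0 TPM in all 9 libraries, 37 were above 0 somewhere but below the filter, and 7 (8.54%) were tested. Over all intervals of the series, 47.9% were listed at 0 throughout and 27% were tested. The tested members were 0 of 23 in HOXA, 2 of 25 in HOXB, 1 of 18 in HOXC and 4 of 16 in HOXD. Together these 7 held 90.4% to 93.1% of the summed TPM of the windows in the shScr libraries. Between 19 and 24 members were above 0 in a shScr library, 26 to 29 in a shCTDP1-#1 library and 22 to 28 in a shCTDP1-#2 library. Over the whole table, every knockdown library had more intervals above 0 than any shScr library, while the member counts of shCTDP1-#2 and shScr overlapped. Whether the whole-table difference plays a part in the member counts was not tested.

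**Figure D1:**
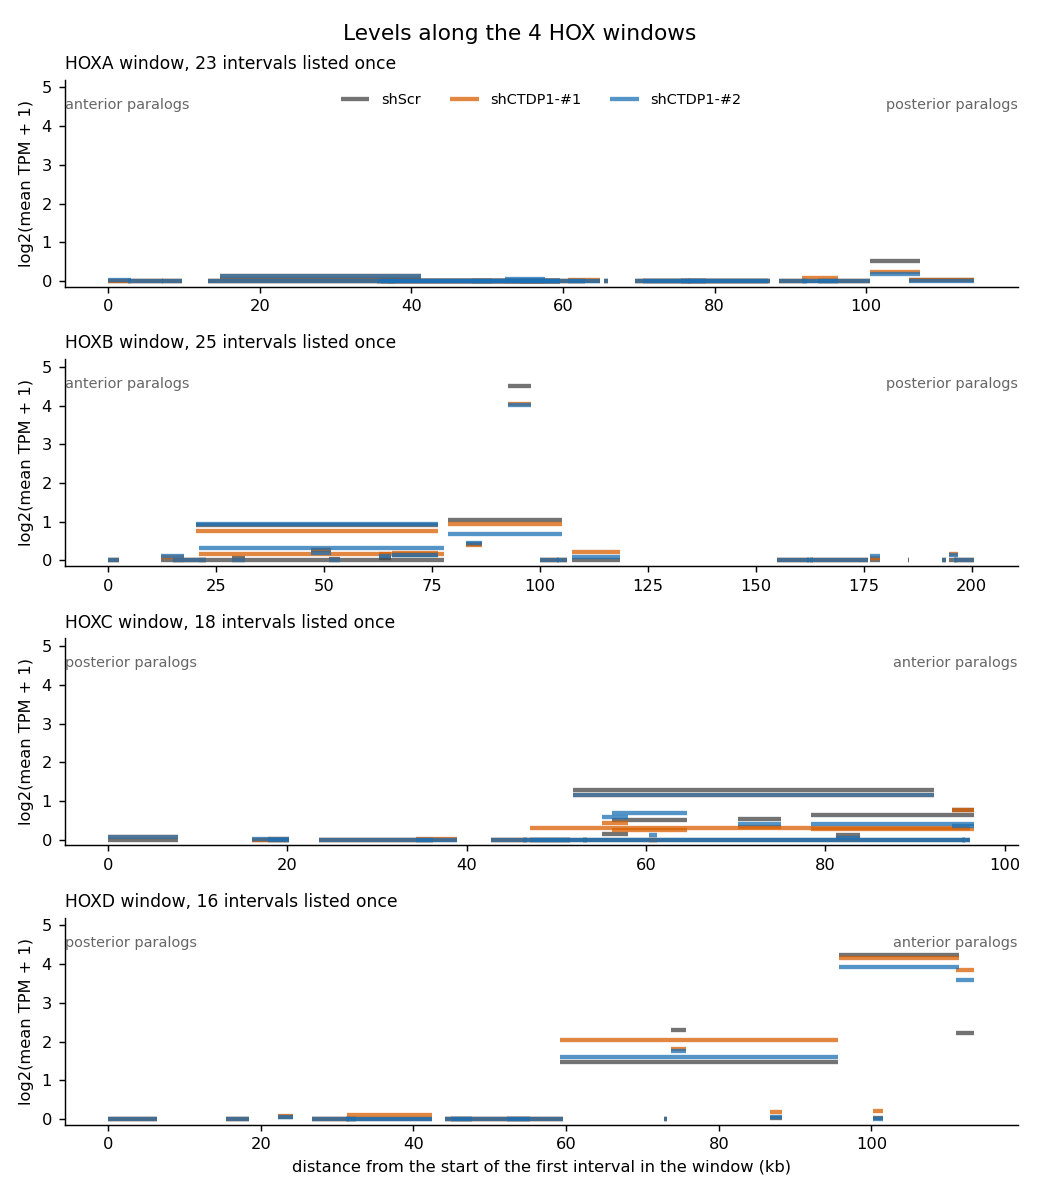
Mean level of each member, as log2(mean TPM + 1) over the 3 libraries of a group, against its position in kb from the first member of its window; each bar spans the interval, and bars of different groups can cover each other at equal levels. HOXA stays near 0, a single short interval stands out in HOXB, and in HOXD the levels lie between 59.1 kb and the anterior end; the words at the ends of each panel are background knowledge on cluster orientation.

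The tested members lay in stretches that covered part of their windows, and lower levels in HOXB and HOXC reached further. In HOXD the 4 tested members lay within 54.3 kb, from 177001340 to 177055688, at the anterior end of the window. The 12 untested HOXD members had at most 0.39 TPM in any library. In HOXB both tested members lay together, starting at 78.7 and 92.6 kb, and the members from 107.4 kb to the posterior end reached at most 0.49 TPM. In HOXC the tested member started at 51.9 kb, and the members that began before 47.1 kb, on the posterior side, had at most 0.11 TPM. Below the filter, 4 more HOXB members and 4 more HOXC members were above 0 in all 9 libraries. With them the HOXB stretch ran from 20.3 to 92.6 kb and the HOXC stretch from 51.9 to 94.1 kb. Over the 9 libraries, the 20.3-kb HOXB member averaged 0.831 TPM, close to the 0.862 TPM of the tested 78.7-kb member, and the 94.1-kb HOXC member averaged 0.562 TPM. In HOXD no member outside the tested 4 was above 0 in all 9 libraries.

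The spans of many members overlap, which may bear on their levels. Exons are not given with the intervals, so whether overlapping members share quantified bases was not tested. Of the 82 members, 72 share bases with another member, and all 7 tested members do. The TruSeq kit named in the labels does not mark strand, so reads of an interval and of an antisense partner over the same bases cannot be told apart. The 8 members shorter than 200 bases, the size of small RNA genes, were all listed at 0 TPM. Whether these libraries can measure intervals so short was not tested, so the listing does not show that they are silent.

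The interval at the anterior end of HOXD rose most among the tested members. It lies on chromosome 2 from 177053307 to 177055688 and starts at 111.1 kb, and it is the last member of the window. Its TPM was 3.24, 3.74 and 4.02 in the shScr libraries. With shCTDP1-#1 it was 13.1, 14.7 and 12.3, and with shCTDP1-#2 it was 11.2, 11.1 and 10.9. All 6 knockdown libraries lay above all 3 shScr libraries, and the groups did not come close to each other. The means were 3.67 ± 0.40 TPM (SD, n = 3), 13.3 ± 1.2 and 11.0 ± 0.2, a ratio of 3.64 with shCTDP1-#1 and 3.01 with shCTDP1-#2. On the log2 scale it rose by 1.62 with shCTDP1-#1 (SE 0.10, adjusted p = 2e-07, limma) and by 1.37 with shCTDP1-#2 (SE 0.10, adjusted p = 7e-07). Of all tested intervals, 98.1% had a lower signed change with shCTDP1-#1 and 96.4% with shCTDP1-#2. Whether more cells transcribed it or each cell held more of its RNA cannot be told apart in bulk RNA.

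Its neighbour did not rise. That interval, from 177037923 to 177053686, starts at 95.7 kb and shares its last 380 bases with the 111.1-kb interval. It was the most abundant HOXD member in every library. Its TPM was 18.6, 16.6 and 17.9 with shScr, 16.5, 16.5 and 17.8 with shCTDP1-#1, and 13.3, 14.4 and 14.6 with shCTDP1-#2. The shCTDP1-#1 libraries overlapped the shScr libraries, and the shCTDP1-#2 libraries lay below both other groups. The log2 change was -0.06 (SE 0.07, adjusted p = 0.49, limma) with shCTDP1-#1, which did not pass the test, and -0.31 (SE 0.07, adjusted p = 0.0035) with shCTDP1-#2, which did.

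The balance between these neighbours can be read within a library, where no scaling enters. The TPM of the 111.1-kb interval divided by that of the 95.7-kb interval was 0.174 to 0.226 in the shScr libraries, 0.691 to 0.891 with shCTDP1-#1 and 0.745 to 0.839 with shCTDP1-#2. Neither hairpin's libraries reached down to the control range, and the ranges of both hairpins overlapped. The pair was chosen after its values were seen, so no test is given for the ratio.

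The next pair inward in HOXD is a short interval inside a long one. The short interval, from 177015950 to 177017954 (73.8 kb, 2005 bases), had 4.22, 4.38 and 3.18 TPM with shScr. It had 2.58, 2.07 and 2.89 TPM with shCTDP1-#1 and 2.10, 2.64 and 2.34 TPM with shCTDP1-#2. All knockdown libraries lay below all shScr libraries, though shScr replicate 3 came near the highest of them. It fell by 0.49 on the log2 scale (SE 0.15, limma adjusted p = 0.015) with shCTDP1-#1 and by 0.55 (SE 0.15, adjusted p = 0.0078) with shCTDP1-#2. The call with shCTDP1-#1 was lost without shScr replicate 1 (adjusted p = 0.051), without shScr replicate 2 (adjusted p = 0.058) or without shCTDP1-#1 replicate 2 (adjusted p = 0.057).

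The long interval around it, from 177001340 to 177037830 (59.1 kb, 36491 bases), ended 92 bases before the 95.7-kb interval began. It had 1.65, 1.82 and 1.83 TPM with shScr, 2.47, 2.99 and 3.97 TPM with shCTDP1-#1, and 2.01, 1.80 and 2.34 TPM with shCTDP1-#2. The shCTDP1-#1 libraries lay above both other groups, while the shCTDP1-#2 and shScr libraries overlapped. It rose with shCTDP1-#1, by a log2 change of 0.57 (SE 0.15, limma adjusted p = 0.0082). With shCTDP1-#2 the log2 change of 0.14 (SE 0.15, adjusted p = 0.46) did not pass. The span of the long interval holds the whole short one, and their values moved in opposite directions with shCTDP1-#1. Whether the transcripts measured for the long interval include those bases was not tested.

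**Figure D2:**
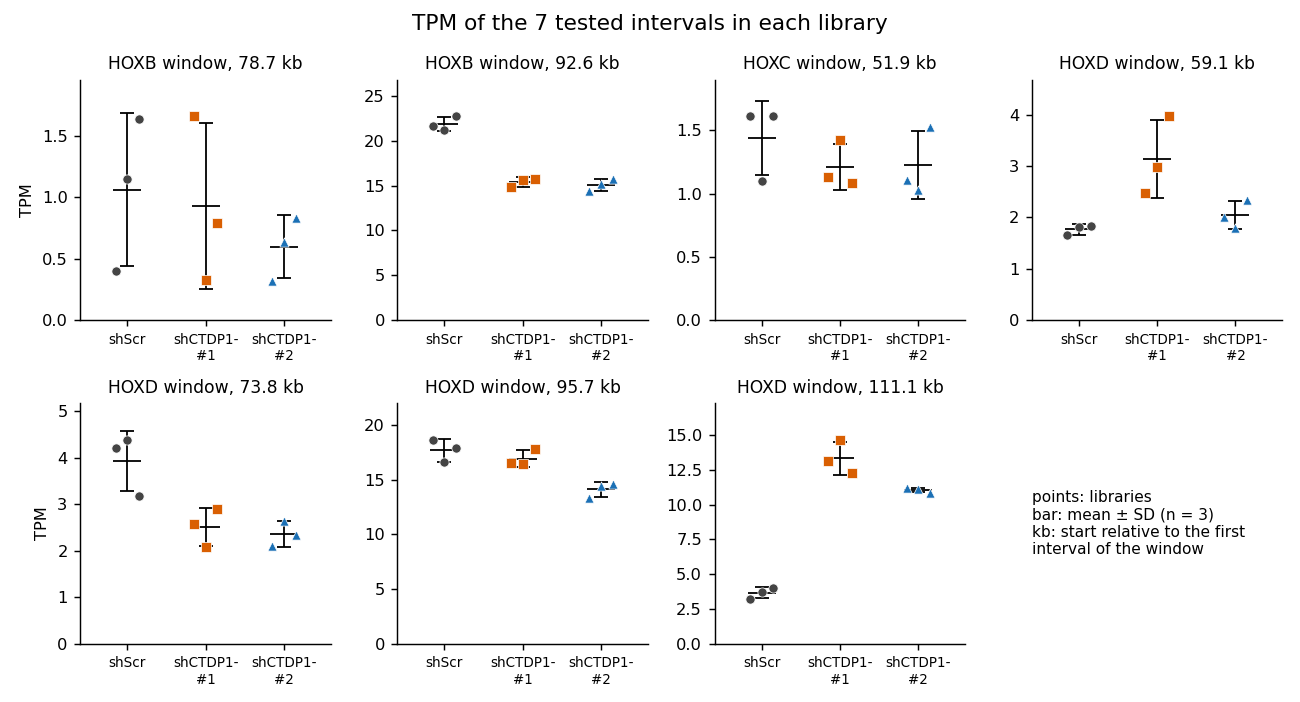
TPM of the 7 tested members in each library, one panel per interval with its window and start in kb; points are libraries and bars are mean ± SD (n = 3 per group), and each vertical axis starts at 0 with its own range. The 111.1-kb HOXD interval has all knockdown libraries at 10.9 TPM or more and all shScr libraries at 4.02 or less, and the 92.6-kb HOXB interval shows the opposite order.

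Summed over the HOXD members listed once, the window held 27.1 ± 0.7 TPM (SD, n = 3) with shScr, 36.3 ± 1.0 with shCTDP1-#1 and 29.7 ± 0.8 with shCTDP1-#2. The 3 ranges did not overlap, from 26.6 to 27.9, from 35.3 to 37.3 and from 28.7 to 30.2. After median-of-ratios scaling the shCTDP1-#2 sum was 28.3 and the shScr sum 28.4, which is nearly equal. After upper-quartile scaling the shCTDP1-#2 sum stayed higher, at 28.7 against 27.7. The difference between these groups thus depended on the scaling. The make-up of the sum differed: the 111.1-kb interval held 13.5% ± 1.7 (SD, n = 3) of it with shScr, 36.8% ± 3.6 with shCTDP1-#1 and 37.3% ± 1.5 with shCTDP1-#2. The share of the 95.7-kb interval was 65.2% ± 2.4, 46.5% ± 1.3 and 47.6% ± 1.0 in the same order. These sums and shares are descriptions with no test.

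**Figure D3:**
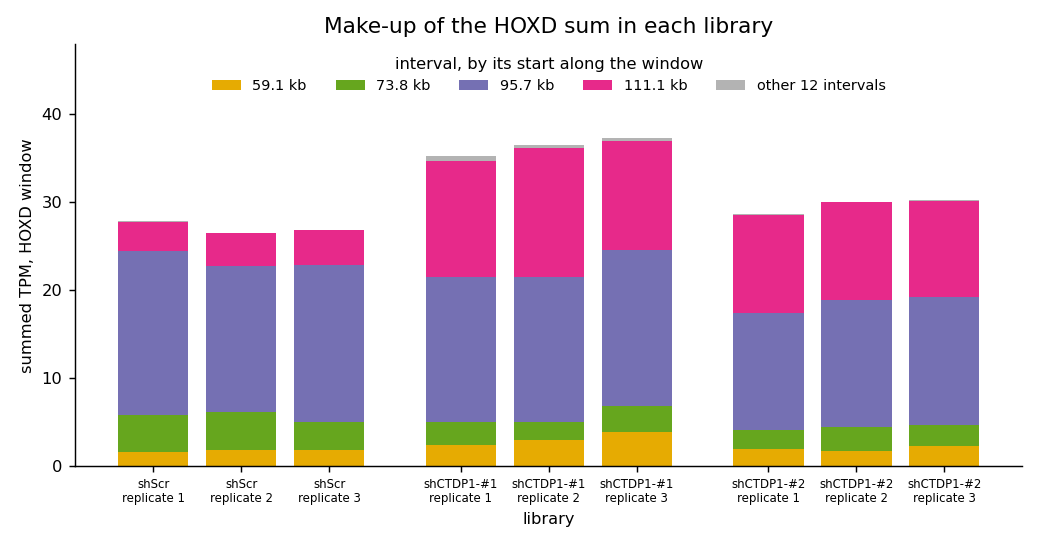
Summed TPM of the HOXD members listed once in each of the 9 libraries, stacked by interval; the vertical axis starts at 0 and the grey part holds the 12 members outside the tested set. The part of the 111.1-kb interval is 11.6% to 14.9% of the bar in the shScr libraries and 33.0% to 40.2% in the knockdown libraries.

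In HOXB, 1 interval carried most of the signal, and it fell with both hairpins. It lies on chromosome 17 from 46698518 to 46703839, starts at 92.6 kb, and was the most abundant member of all 4 windows in the shScr libraries. Its TPM was 21.6, 21.2 and 22.7 with shScr. It was 14.8, 15.7 and 15.8 with shCTDP1-#1, and 14.4, 15.2 and 15.7 with shCTDP1-#2. All knockdown libraries lay well below all shScr libraries, and both hairpins gave overlapping values. It fell by 0.48 on the log2 scale (SE 0.06, limma adjusted p = 8.5e-05) with shCTDP1-#1 and by 0.51 (SE 0.06, adjusted p = 5.6e-05) with shCTDP1-#2. The knockdown means were 0.705 and 0.691 of the shScr mean of 21.9 TPM. In absolute size, 59.2% and 62.0% of all tested intervals changed less.

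The other tested HOXB member spans that interval, from 46684594 to 46710934 (78.7 kb, 26341 bases). It had 0.40, 1.15 and 1.64 TPM with shScr, 1.66, 0.33 and 0.79 with shCTDP1-#1, and 0.32, 0.64 and 0.83 with shCTDP1-#2. The groups overlapped widely. Neither hairpin passed the limma test: the log2 change was -0.11 (SE 0.30, adjusted p = 0.77) for shCTDP1-#1 and -0.33 (SE 0.30, adjusted p = 0.35) for shCTDP1-#2. The sign of the first turned without shScr replicate 3 (0.09) or without shCTDP1-#1 replicate 2 (0.13).

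The HOXB window as a whole held 24.6 ± 1.1 TPM (SD, n = 3) with shScr, 18.3 ± 0.6 with shCTDP1-#1 and 17.9 ± 1.2 with shCTDP1-#2. The 92.6-kb interval was 86.7% to 91.5% of that sum with shScr and 82.2% to 87.8% in the knockdown libraries. Outside the tested pair, the highest HOXB member ran from 46626232 to 46682274 (20.3 kb), with 0.70, 1.12 and 0.87 TPM with shScr, 0.56, 0.85 and 0.68 with shCTDP1-#1 and 1.13, 0.74 and 0.83 with shCTDP1-#2. Its groups overlapped, and it missed the filter with 2 libraries above 1 TPM. This interval, and the untested HOXC and HOXA intervals described next, were picked after their values were seen.

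HOXC and HOXA gave little RNA. The tested HOXC interval, from 54384408 to 54424607 (51.9 kb, 40200 bases), spans or touches 8 other members. It had 1.61, 1.10 and 1.61 TPM with shScr, 1.13, 1.42 and 1.08 with shCTDP1-#1, and 1.11, 1.03 and 1.53 with shCTDP1-#2, and the groups overlapped. Neither change passed in limma, at -0.14 on the log2 scale (SE 0.16, adjusted p = 0.48) for shCTDP1-#1 and -0.13 (SE 0.16, adjusted p = 0.49) for shCTDP1-#2. The untested HOXC interval from 54387594 to 54390569 (55.1 kb) had 0.12, 0.17 and 0.05 TPM with shScr, 0.37, 0.43 and 0.26 with shCTDP1-#1, and 0.40, 0.44 and 0.69 with shCTDP1-#2. The knockdown libraries were all above the shScr libraries there, at under 1 TPM. In a fit with no filter its log2 change was 0.28 (SE 0.12, limma adjusted p = 0.11) with shCTDP1-#1 and 0.44 (SE 0.12, adjusted p = 0.019) with shCTDP1-#2. Of the 37 members below the filter, that fit called 0 with shCTDP1-#1 and only this 1 with shCTDP1-#2, where 21.4% of all intervals were called higher. The interval was picked for its values, so these p-values are no test of it.

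In HOXA, 16 of 23 members were listed at 0 TPM in every library, and 4 of the other 7 were above 0 in a single library. The only member above 0 in all 9 libraries was the interval from 27233122 to 27239725 (100.5 kb), near the posterior end. It had 0.36, 0.42 and 0.53 TPM with shScr, 0.32, 0.09 and 0.12 with shCTDP1-#1, and 0.27, 0.04 and 0.08 with shCTDP1-#2. The shScr libraries were higher, by 0.04 TPM at the closest. With no filter the limma fit gave -0.29 on the log2 scale (SE 0.12, adjusted p = 0.11) for shCTDP1-#1 and -0.35 (SE 0.12, adjusted p = 0.058) for shCTDP1-#2, and neither passed. That interval too was picked for its values, so these p-values are no test of it. TPM keeps no read counts, so how many reads stand behind such values is unknown, and a value of 0 says only that the interval is listed at 0. The HOXA sum was 0.493 ± 0.119 TPM (SD, n = 3) with shScr, 0.357 ± 0.230 with shCTDP1-#1 and 0.287 ± 0.160 with shCTDP1-#2. The HOXC sum was 3.78 ± 0.25, 3.22 ± 0.24 and 3.47 ± 0.83 TPM in the same order.

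Counted over the 7 tested members, 2 rose, 2 fell and 3 did not pass the test with shCTDP1-#1, while 63.1% of all tested intervals were called, 35.4% as higher and 27.7% as lower. With shCTDP1-#2, 1 rose, 3 fell and 3 did not pass, against 64.0% called among all tested intervals, 39.5% as higher and 24.6% as lower. Both counts, 4 of 7, lay near those background shares. The libraries of the groups did not overlap for 4 of 7 members with shCTDP1-#1, where 67.8% of all tested intervals showed this, and for 4 of 7 with shCTDP1-#2, where 67.9% did. The median log2 change of the 7 was -0.11 with shCTDP1-#1 and -0.31 with shCTDP1-#2, beside 0.07 and 0.13 over all tested intervals. Both comparisons use the same 3 shScr libraries, so their values for a member are not independent of each other. After median-of-ratios scaling the median over all tested intervals became 0.02 with shCTDP1-#1 and 0.01 with shCTDP1-#2, and the changes of the 7 members were lower by 0.03 to 0.06 and by 0.06 to 0.13, with the smallest shift at the 78.7-kb HOXB interval. With that scaling 31.6% of all tested intervals were called higher with shCTDP1-#2 and 31.3% lower, and the members' counts stayed at 1 and 3. Relative to the median of all tested intervals in the deposited values, the change of the 111.1-kb HOXD interval was 1.55 and 1.24, and that of the 92.6-kb HOXB interval was -0.55 and -0.64.

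**Figure D4:**
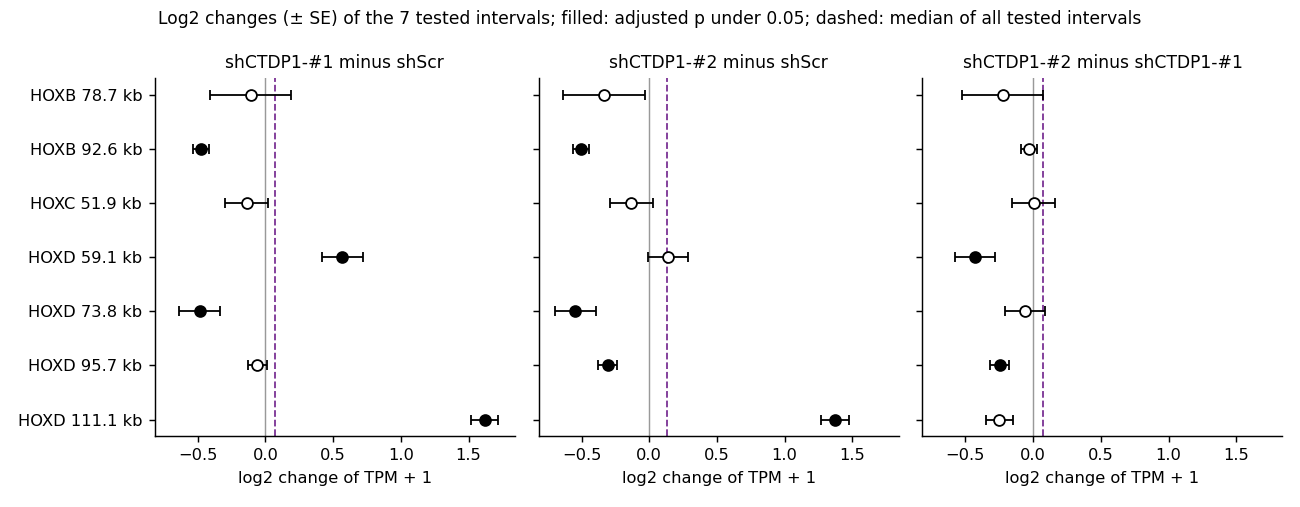
Log2 change of TPM + 1 (point) with its standard error (bar) for the 7 tested members in each of 3 comparisons; filled points passed a limma adjusted p of 0.05, and the dashed line marks the median of all tested intervals. The 111.1-kb HOXD interval stands at 1.62 and 1.37 against shScr, and the other changes lie between -0.55 and 0.57.

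Between the hairpins, shCTDP1-#2 minus shCTDP1-#1, 0 of the 7 members were higher and 2 were lower by limma, where 50.2% of all tested intervals were called, 30.2% as higher and 20.0% as lower. The libraries of both hairpins did not overlap for 3 of the 7, against 58.0% of all tested intervals. Without adjustment, the limma p was below 0.05 for 3 of the 7 members, each lower with shCTDP1-#2. At least 50.2% of all tested intervals passed that looser limit, since that share was called after adjustment. The count of members is therefore no sign of a difference particular to them. The 59.1-kb HOXD interval averaged 3.14 ± 0.76 TPM with shCTDP1-#1 and 2.05 ± 0.27 with shCTDP1-#2 (SD, n = 3), a log2 difference of -0.43 (SE 0.15, limma adjusted p = 0.039). That call was lost without any 1 of 7 libraries, at adjusted p-values from 0.05 (rounded down) to 0.15, and it held without shCTDP1-#1 replicate 1 or shCTDP1-#2 replicate 3. It was also lost with no filter on low values, and when only the 6 libraries of both hairpins were fitted (adjusted p = 0.067 each). The 95.7-kb HOXD interval averaged 16.9 ± 0.8 and 14.1 ± 0.7 TPM, a log2 difference of -0.25 (SE 0.07, adjusted p = 0.015). It was lost without shCTDP1-#1 replicate 3 (adjusted p = 0.054) or shCTDP1-#2 replicate 1 (adjusted p = 0.059). The 111.1-kb HOXD interval was lower in every shCTDP1-#2 library than in any shCTDP1-#1 library, with a log2 difference of -0.25 (SE 0.10, adjusted p = 0.052). It passed the limma test in 7 of 20 alternatives, at adjusted p-values from 0.023 to 0.049: both scalings, limma without trend and robust, the 6 libraries of both hairpins alone, and without shScr replicate 1, shScr replicate 3 or shCTDP1-#1 replicate 3. The 92.6-kb HOXB interval had a log2 difference of -0.03 (SE 0.06, adjusted p = 0.74).

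Leaving out the library with the high mitochondrial share kept the calls of the 111.1-kb HOXD and 92.6-kb HOXB intervals. Without shScr replicate 1, the log2 changes of the 111.1-kb interval were 1.55 with shCTDP1-#1 and 1.30 with shCTDP1-#2. Those of the 92.6-kb interval were -0.48 and -0.51, and those of the 59.1-kb HOXD interval 0.54 and 0.11.

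At the edges of the windows, most neighbours were as low as the members beside them. The first members of HOXA, HOXB, HOXC and HOXD had at most 0.11 TPM, and the last members of HOXA and HOXB at most 0.07. The interval across the low edge of HOXC, from 54329112 to 54333427, had at most 0.08 TPM, the nearest intervals outside HOXC had at most 0.05 TPM, and those outside HOXA were listed at 0. The nearest interval below HOXB, 56.6 kb away, had at most 1.22 TPM, and the nearest above it was listed at 0. HOXD differed: the nearest interval above it, 5.6 kb beyond the edge (177065636 to 177065980), had 8.78 to 14.39 TPM with shScr, 6.51 to 12.86 with shCTDP1-#1 and 4.07 to 8.23 with shCTDP1-#2. The nearest interval below it, 72.4 kb away, had 18.3 to 26.5 TPM.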

How the data were processed

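The submitters' processing notes name STAR, RSEM and hg19; tool versions are not given in the sources used here. Each library has 1 file from the authors, and its deposited values are taken as TPM because they sum to that unit's total. Starts were read as counted from 1, since all 37 mitochondrial intervals then equal GENCODE v29 genes.

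Files were joined on coordinates. Rows sharing an interval (2246 of 57773) were left out, at most 0.391% of a library's TPM. Intervals with at least 1 TPM in 3 or more libraries (15011) were fitted with limma 3.58.1 (trend and robust, R 4.3.3, statmod 1.5.0) on log2(TPM + 1) with a mean per group, 6 residual degrees of freedom and Benjamini-Hochberg adjustment. The fit was also run on simulated data with independent noise and few changed intervals. That setting is unlike these data, so the run says nothing about the calls given here.

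Members and lists were chosen with earlier results of these data known. Values in every library are given for up to 8 tested members with the highest mean TPM in each window and for any called with both hairpins at a log2 change of at least 1. Outside that rule, they are also given for single untested intervals of HOXB, HOXC and HOXA, picked after their values were seen. Alternatives were pseudocounts, filters, scalings, limma options, the libraries fitted, a replicate block and a 1.5-fold test. The planned list of HOX cofactors and regulators was not analysed here, as it needs gene names. TPM keeps no depth, so no counting intervals are given.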

Additional observations from a re-analysis of the deposited data

Results flagged for a closer look

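The limma test of shCTDP1-#2 minus shCTDP1-#1 called 2 of 7 members lower, both in HOXD. Of all tested intervals, 20.0% were called lower and 50.2% in either direction. The 59.1-kb interval had a log2 difference of -0.43 (adjusted p = 0.039), a call lost without any 1 of 7 libraries, and the 95.7-kb interval one of -0.25 (adjusted p = 0.015), lost without either of 2 libraries. All 3 shCTDP1-#2 libraries lay below all 3 shCTDP1-#1 libraries for each. The level of CTDP1 in these libraries was not analysed, so its part in the differences was not tested.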

How the results depend on the processing

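All alternatives were planned. The 111.1-kb HOXD and 92.6-kb HOXB intervals kept direction and call against shScr with both hairpins, except that the latter missed when tested against a fold change of 1.5. Against that fold, limma called 1 of 7 members higher and 0 lower with shCTDP1-#1 (7.89% and 5.82% of all tested intervals), 1 higher and 0 lower with shCTDP1-#2 (9.52% and 3.84%), and 0 lower between the hairpins (1.58%). With no filter, 44 members were fitted, of which 2 were higher with shCTDP1-#2 (21.4% of all intervals) and 1 was lower between the hairpins (9.99%). Between the hairpins, 3 of 7 were lower after median-of-ratios scaling (24.5% of all), after upper-quartile scaling (24.1%) and with limma without trend and robust (19.6%). Leaving out 1 library in turn gave 1 to 2 of 7 lower with shCTDP1-#1 (25.5% to 27.8% of all) and 0 to 2 lower between the hairpins (17.7% to 19.9%). Signs turned only for changes that did not pass: the 51.9-kb HOXC difference between hairpins was -0.03 after either scaling and ran from -0.09 to 0.07 with a library left out. Over the same omissions the 78.7-kb HOXB change with shCTDP1-#1 lay between -0.37 and 0.13, and its difference between the hairpins between -0.46 and 0.04. The differences between hairpins ran from -0.15 to 0.02 at 73.8 kb in HOXD and from -0.06 to 0.00 at 92.6 kb in HOXB. The cause of these turns was not tested.

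The labels number the libraries 1 to 3 in each group. They do not say that a number marks a shared batch, so the main fit did not pair libraries by number. Across groups, the deviations of libraries with the same number had correlations of -0.007 to 0.053, against -0.046 to 0.024 for unlike numbers. These correlations were small, but 8 of 9 libraries correlated best with their own number, so a weak link by number may exist. With the replicate block, the counts of members called higher and lower were 2 and 2 for shCTDP1-#1, 1 and 3 for shCTDP1-#2, and 0 and 2 between the hairpins, as without it. The depth of the libraries is unknown, which limits what values under 1 TPM can show.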
